A study of Mus musculus with 3 samples.

Results

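The NRF2 antioxidant and glutathione genes described here are 10 mouse genes: the transcription factor NRF2 itself, its inhibitor and a set of its classical targets. They were chosen by name, as the genes whose symbol the array annotation gives to a probe set of its own. Earlier results of these data were known when they were chosen. All 10 had exactly 1 such probe set, out of 18820 genes with a probe set of their own, and all 10 were among the 9410 genes past the filter on low values. That filter keeps the brighter genes, those with a mean over the arrays of 4.14 or more, which is where the median gene lies. The cells were RAW264.7, an established mouse macrophage line. Each culture received a single fatty acid at 500 µM for 6 hours, carried on albumin at 2 fatty acid molecules per albumin. Oleate has a single cis double bond, elaidate is its trans isomer, and palmitate is saturated and has a shorter chain. Each gave 1 whole-transcript Affymetrix array, 3 arrays in all, with no array of untreated cells. No difference below therefore has a replicate check or a p-value, and none can be read as a response against untreated cells.

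NRF2, encoded by Nfe2l2, is held in the cytosol and marked for degradation by KEAP1. Electrophiles and oxidants modify KEAP1, NRF2 then accumulates in the nucleus and, with a small MAF partner, switches on genes through antioxidant response elements. Its control is thus mostly at the level of protein stability, and the activity of the pathway is usually read from target genes rather than from Nfe2l2 mRNA. The targets make glutathione, reduce thioredoxin and peroxiredoxins, break down haem and detoxify quinones. In macrophages the pathway is known for limiting oxidative damage during phagocyte activation.

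Most of the classical targets among the 10 genes had nearly the same level under all 3 fatty acids. The exceptions among the 10 were Sqstm1, Hmox1 and Srxn1, all highest on the palmitate array. Targets outside the 10 genes are given further below. Some of them differed, such as Slc7a11 and Slc40a1, and others differed by less, such as Prdx1. Sqstm1 was 2.93-fold higher with palmitate than with oleate, while the genes of glutathione synthesis and reduction (Gclc, Gclm and Gsr) differed by less than 0.1 on the log2 scale in every comparison. Of the 10 genes, 7 had a range under 0.1 over the 3 arrays, as did 49.6% of all genes past the filter. The remaining 3 were at least 0.1 apart in all 3 comparisons, as were 14.8% of all genes past the filter.

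**Figure D1:**
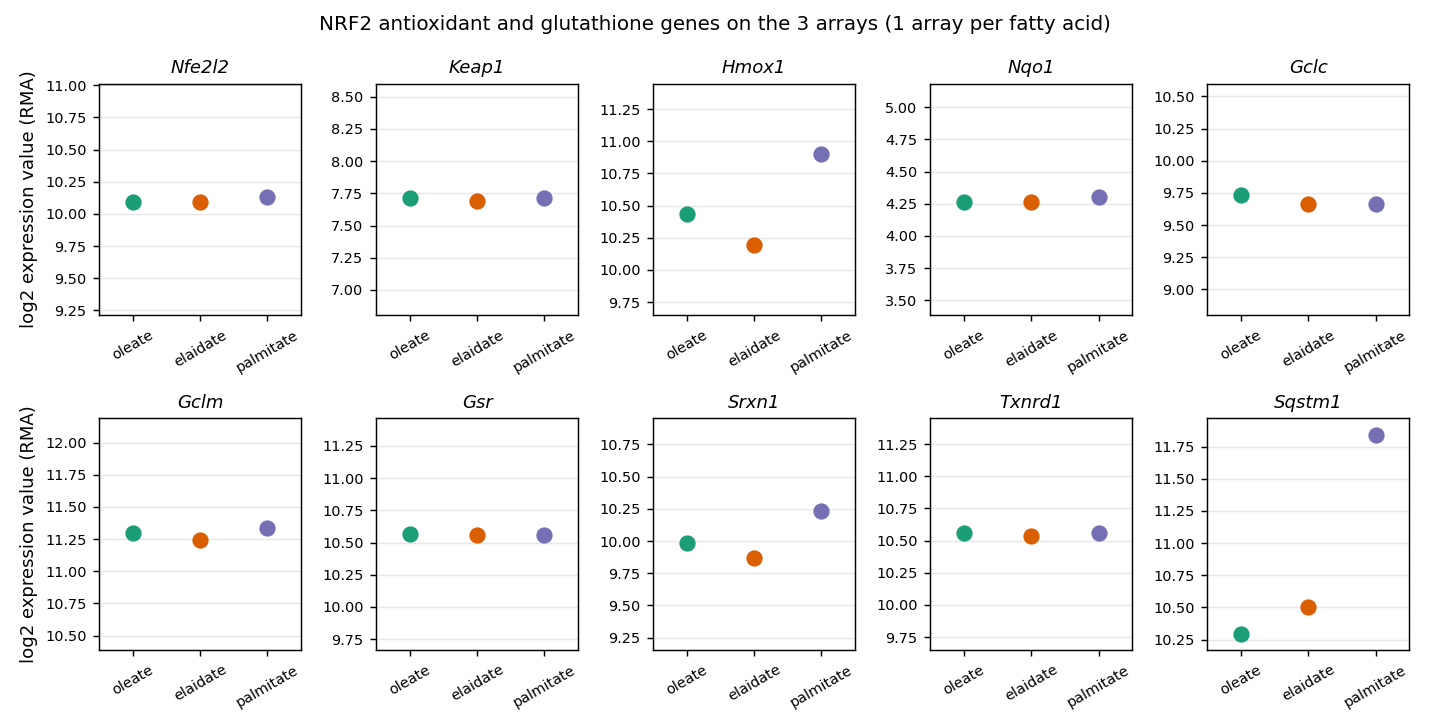
Log2 expression value of each of the 10 genes on the oleate, elaidate and palmitate arrays, 1 point per array; every panel has its own vertical axis of the same span, so slopes compare between panels and levels do not. Sqstm1, Hmox1 and Srxn1 stand highest on the palmitate array, at 11.84, 10.90 and 10.24, and the other genes lie almost level.

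The regulators came first. Nfe2l2 (Gene ID 18024) had a log2 value of 10.09 with oleate, 10.09 with elaidate and 10.13 with palmitate. The oleate and elaidate values were equal and palmitate was 0.03 higher. Keap1 (Gene ID 50868), the adaptor that presents NRF2 to the CUL3 ubiquitin ligase, stood at 7.71, 7.69 and 7.71 in the same order. Its largest difference, 0.02, was between the elaidate array and each of the others. Transcripts of both the factor and its inhibitor were thus within 0.1 on all arrays.

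Sqstm1 (Gene ID 18412) encodes p62, an autophagy receptor that binds KEAP1 and carries it to autophagosomes, and is itself an NRF2 target. Its log2 values were 10.29 with oleate, 10.51 with elaidate and 11.84 with palmitate. The palmitate array stood well above the other 2, and elaidate lay slightly above oleate. Palmitate minus oleate was 1.55, a 2.93-fold difference that 59 of the 9410 genes reached or passed in the same direction. Palmitate minus elaidate was 1.34, or 2.53-fold, reached by 49 genes. Elaidate minus oleate was 0.21, or 1.16-fold, and 5.62% of genes were at least as far higher. Sqstm1 had the widest range of the 10 genes, and 0.935% of all genes had a range as wide. A further probe set, annotated to both Mrnip and Sqstm1 and so not used for either gene, stood at 6.53, 6.53 and 6.62, with palmitate 0.09 above the other arrays. Averaging it into Sqstm1 gives a palmitate value 0.82 above oleate and 0.71 above elaidate, both under 2-fold, an alternative chosen after seeing the data.

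Hmox1 (Gene ID 15368) encodes haem oxygenase 1, which opens the haem ring and releases iron, carbon monoxide and biliverdin. It stood at 10.44 with oleate, 10.19 with elaidate and 10.90 with palmitate. Unlike Sqstm1, it was lowest with elaidate. Palmitate minus elaidate was 0.71, or 1.63-fold, and 2.24% of genes were at least as far higher. Palmitate minus oleate was 0.46, or 1.38-fold, with 6.32% of genes at least as far higher. Elaidate minus oleate was -0.24, and 2.16% of genes were at least as far lower. Nqo1 (Gene ID 18104), the quinone reductase most often used as a marker of NRF2 activity, stood at 4.26, 4.26 and 4.31. That is close to the filter value of 4.14, so a low signal limits what this probe set can show.

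The glutathione genes lay almost level. Gclc (Gene ID 14629), the catalytic subunit of glutamate-cysteine ligase and so of the limiting step in glutathione synthesis, stood at 9.73 with oleate, 9.66 with elaidate and 9.67 with palmitate. Gclm (Gene ID 14630), the modifier subunit of the same enzyme, stood at 11.30, 11.24 and 11.33. Gsr (Gene ID 14782), which regenerates reduced glutathione, stood at 10.57, 10.56 and 10.56. The subunits of the ligase did not share an order: Gclc was highest on the oleate array and Gclm on the palmitate array, each by under 0.1, and with arrays centred on their medians Gclm too was highest with oleate.

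In the thioredoxin branch, one gene differed and one did not by more than 0.1. Srxn1 (Gene ID 76650), sulfiredoxin, restores peroxiredoxins that peroxide has over-oxidised. Its values were 9.99 with oleate, 9.87 with elaidate and 10.24 with palmitate, the order seen for Hmox1. Palmitate minus elaidate was 0.36, or 1.29-fold, palmitate minus oleate 0.25, and elaidate minus oleate -0.12. Txnrd1 (Gene ID 50493), the cytosolic thioredoxin reductase, stood at 10.56, 10.54 and 10.56, with oleate and palmitate equal.

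Counted at 2-fold, the comparisons read as follows. Between elaidate and oleate, 0 of the 10 genes were 2-fold apart, where 0.106% of all genes past the filter were. Of the 10 genes, 1 was higher with elaidate (Sqstm1), 7 were lower and 2 were equal, where 31.5% of all genes were higher and 24.3% lower, and their median difference was -0.02 beside 0 over all genes. Between palmitate and oleate, Sqstm1 alone was 2-fold apart, where 2.87% of all genes were, 1.65% higher with palmitate and 1.22% lower. Palmitate was above oleate for 6 of the 10 genes, below it for 2 and equal for 2, where 30.9% of all genes were higher and 36.8% lower, and the median was 0.04 beside 0. Between palmitate and elaidate, Sqstm1 alone was again 2-fold apart, where 1.85% of all genes were, 0.978% higher with palmitate and 0.871% lower. There 9 genes were higher with palmitate and 1 was equal, where 27.9% of all genes were higher and 37.9% lower, with a median of 0.04 beside 0. With each array centred on its median, palmitate was above oleate for 4 of the 10 genes and below it for 6, where it was above for 25.7% of all genes. It was then above elaidate for 6 and below it for 4, where it was above for 24.4% of all genes. Elaidate was then above oleate for 1 and below it for 9, where it was above for 28.3% of all genes. Centring shifts each array by a constant, so genes with equal values then count as lower on the array with the higher median. The centred shares of all genes are partly made by such ties. These comparisons share arrays, so their counts are not independent of each other, and most of the differences behind the directions are under 0.1.

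**Figure D2:**
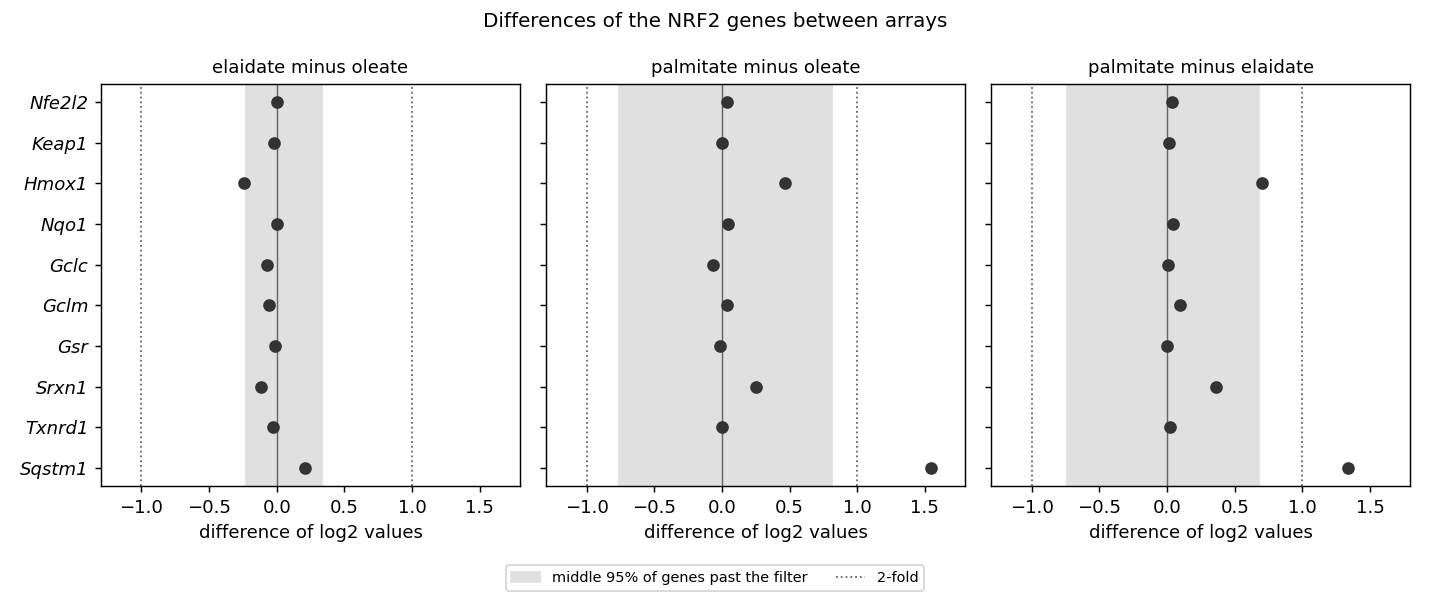
Difference of log2 values for each of the 10 genes in the 3 comparisons; points are genes, the grey band holds the middle 95% of the 9410 genes past the filter, and dotted lines mark 2-fold. Sqstm1 lies beyond the 2-fold line in both comparisons with palmitate, at 1.55 and 1.34, and all other points lie inside 2-fold.

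The order of the arrays showed where the 10 genes sat relative to the rest of the transcriptome. Elaidate alone was lowest for 6 of them (Keap1, Hmox1, Gclc, Gclm, Srxn1 and Txnrd1), and for 7.66% of all genes past the filter. Palmitate alone was highest for 6 (Nfe2l2, Hmox1, Nqo1, Gclm, Srxn1 and Sqstm1), and for 2356 of the 9410 genes. Hmox1, Gclm and Srxn1 held both positions, as did 4.75% of all genes. Palmitate alone was lowest for 0 of the 10, where it was lowest for 32.7% of all genes. For 5 of the 10 (Nfe2l2, Keap1, Nqo1, Gsr and Txnrd1) exactly 2 arrays had equal values to within 1e-06, as for 28.0% of all genes. These orders rest in part on small differences. With each array centred on its own median, palmitate alone was highest for 4 of the 10 genes (Hmox1, Nqo1, Srxn1 and Sqstm1) and for 21.3% of all genes. Elaidate alone was then lowest for 5 (Nfe2l2, Hmox1, Nqo1, Gclm and Srxn1) and for 13.2% of all genes. Keap1, Gclc and Txnrd1 had left that set. Nfe2l2 and Nqo1 had entered it, and their oleate and elaidate values were equal before centring. Palmitate alone was then lowest for 4 (Keap1, Gclc, Gsr and Txnrd1) and for 71.2% of all genes. That share takes in the 27.5% of genes that were equal on all arrays before centring, which the constant shift makes lowest with palmitate. The order of the arrays held under that centring for Hmox1, Srxn1 and Sqstm1. With it, 5 of the small directions turn: those of Nfe2l2 and Gclm against oleate, and those of Keap1, Gclc and Txnrd1 against elaidate, each with palmitate.

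Promoter sequences were taken from RefSeq (build GRCm38.p6), which gave windows from 250 bases before to 50 bases after a gene's start for 7 of the 10 genes, 9 windows in all. They are shown for Sqstm1, the gene that differed most, and for the genes whose window holds the core of the antioxidant response element, TGACNNNGC, read on both strands. Capitals mark the match, and GCNNNGTCA is the same core on the opposite strand. Each is written 5′ to 3′ along the gene's strand; the Sqstm1 stretch is the 250 bases before its start.
Sqstm1, chr11:50210821-50211070, minus strand: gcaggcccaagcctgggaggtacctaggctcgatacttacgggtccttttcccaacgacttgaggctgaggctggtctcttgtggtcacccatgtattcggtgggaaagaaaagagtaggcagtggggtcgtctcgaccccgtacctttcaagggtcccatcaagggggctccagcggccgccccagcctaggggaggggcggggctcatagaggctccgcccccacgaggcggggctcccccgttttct
Nfe2l2, chr2:75704850-75704913, minus strand: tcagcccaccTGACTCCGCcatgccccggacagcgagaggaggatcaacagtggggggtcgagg
Gclm, chr3:122245378-122245476, plus strand: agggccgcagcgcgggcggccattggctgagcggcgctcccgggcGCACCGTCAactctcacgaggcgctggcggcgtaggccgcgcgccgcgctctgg
Txnrd1, chr10:82859069-82859167, plus strand: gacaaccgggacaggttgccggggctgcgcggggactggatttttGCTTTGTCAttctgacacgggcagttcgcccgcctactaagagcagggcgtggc
Srxn1, chr2:152105542-152105570, plus strand: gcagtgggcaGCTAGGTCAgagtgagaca
The Nfe2l2 match begins 240 bases before the start, the Gclm match 134 and the Txnrd1 match 92, the last at 1 of that gene's several starts, while the Srxn1 match begins 28 bases past the start. In all, 4 of the 9 windows held a match, beside 12.4% of the 32851 windows of all genes. Sqstm1, Keap1 and Nqo1 had none of these letters in their windows. The core of the element bound by ATF4 with C/EBP factors, TGATGNAA, was in 0 of the 9 windows and in 3.97% of all windows. The first core also takes in some binding sites of AP-1, which begin TGACTCA, as a subset of its letters. A match is a run of letters, and binding was not measured.

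Other genes around the pathway were taken from 10 lists of 117 genes, of which 105 had a probe set of their own and 96 passed the filter. Those at least 2-fold apart in some comparison were Nfe2l1, Slc7a11, Chac1, Cth, Slc1a4, Sesn2, Sesn1 and Slc40a1. Over the 105 genes, 6 were at least 2-fold higher with palmitate than with oleate and 0 lower; all 6 passed the filter, which makes 6.25% of the 96 beside 2.87% of all genes past it. Between palmitate and elaidate 6 were 2-fold higher and 1 lower, 7.29% of the 96 beside 1.85%, and between elaidate and oleate 1 was 2-fold higher, 1.04% beside 0.106%. The median over the 105 genes was 0 in each comparison, as over all genes. The lists were written with earlier results of these arrays known, which had already shown several of these genes to differ.

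Among partner factors, Nfe2l1, a relative of NRF2 that controls proteasome genes, stood at 9.09 with oleate, 9.54 with elaidate and 10.16 with palmitate. Palmitate minus oleate was 1.07, the only one of the 8 genes in that list past 2-fold, where 2.87% of all genes past the filter were. Mafk, a small MAF partner of NRF2, was 0.43 higher with palmitate than with oleate. Mafg, Maff and Bach1 were equal on all arrays, as were 27.5% of all genes past the filter. With ties this common, an equal value is not a measure of unchanged expression, here or for other genes. Bach1 is the repressor that competes with NRF2 at the Hmox1 gene. For Cul3, the ligase scaffold that KEAP1 recruits, palmitate minus oleate was -0.13.

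In the cystine and glutathione supply list, 4 of 11 measured genes were at least 2-fold higher with palmitate than with oleate, all among the 8 that passed the filter, where 1.65% of all genes past it were. Since the list was written with earlier results of these arrays known, this count describes the list and is not independent of those results. Slc7a11, the cystine importer and a known target of both NRF2 and ATF4, stood at 8.77, 8.91 and 10.63 on the oleate, elaidate and palmitate arrays. Its partner chain Slc3a2 stood at 10.92, 10.87 and 11.87. Cth, which makes cysteine from cystathionine, stood at 8.95, 9.76 and 11.66. Chac1, which breaks glutathione down, stood at 5.13, 5.94 and 7.61. Slc1a4, a carrier of neutral amino acids, stood at 4.66, 5.87 and 7.95. Cth, Chac1 and Slc1a4, known ATF4 targets, were higher with elaidate than with oleate, by 0.80, 0.81 and 1.21, while Slc7a11 stood at 0.14 and Slc3a2 at -0.04 in that comparison. Gss, which completes glutathione after the ligase, differed by at most 0.02.

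**Figure D3:**
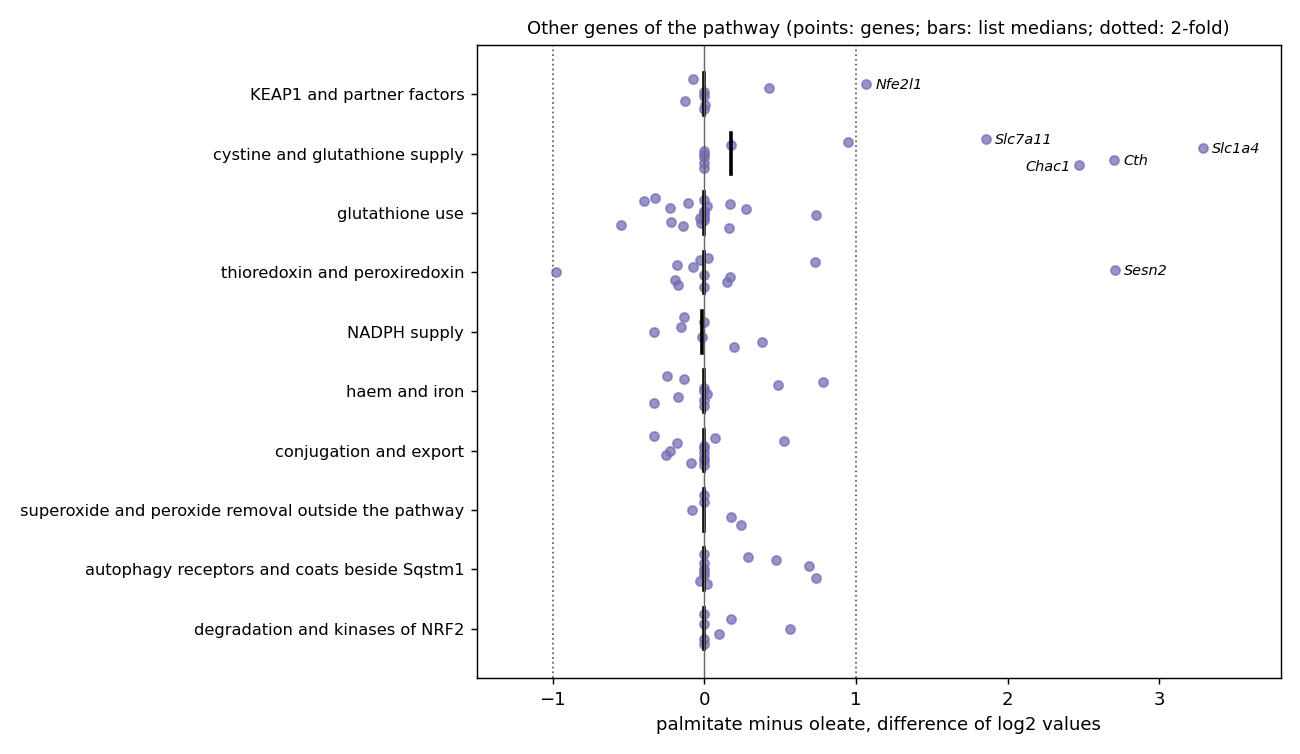
Palmitate minus oleate difference of log2 values for the measured genes of the 10 lists around the pathway; each point is a gene, black bars are list medians and dotted lines mark 2-fold. The genes past 2-fold are Nfe2l1 at 1.07, Slc7a11 at 1.86, Chac1 at 2.47, Cth at 2.70, Slc1a4 at 3.29 and Sesn2 at 2.71, and every list's median except that of cystine and glutathione supply, at 0.18, lies at or near 0.

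None of the 20 measured genes of glutathione use, 16 of them past the filter, was 2-fold apart in any comparison, which is near the share of all genes (0.106%, 2.87% and 1.85%). Palmitate against oleate gave 5 higher, 9 lower and 6 equal, where 30.9% of all genes past the filter were higher, 36.8% lower and 32.3% equal. Gsta3, a glutathione transferase and NRF2 target, stood at 5.85, 5.66 and 6.59, so that it was lowest with elaidate and highest with palmitate. Glrx, glutaredoxin, went the other way, at 10.38, 10.42 and 9.83. Mgst1, a membrane-bound transferase, stood at 6.99, 7.25 and 6.59.

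Of 13 thioredoxin and peroxiredoxin genes, Sesn2 was the one 2-fold higher with palmitate than with oleate, where 1.65% of all genes past the filter were. Sesn2, a sestrin known as a stress-induced target of several factors, stood at 6.65, 7.28 and 9.36. Its relative Sesn1 was lower with palmitate, at 6.63, 6.70 and 5.65, which is -1.04 relative to elaidate. Txnip, which binds and inhibits thioredoxin, was 0.73 higher with palmitate than with oleate. Prdx1, a peroxiredoxin and classical NRF2 target, stood at 0.15 in the same comparison, and Txn1, thioredoxin, at -0.08.

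Of the 7 measured NADPH supply genes, 4 were higher with elaidate than with oleate and 6 were lower with palmitate than with elaidate. Of all genes past the filter, 31.5% were higher and 37.9% lower in these comparisons. Some of the differences counted were under 0.1. Me1, malic enzyme, stood at 8.75, 9.28 and 9.13, and Idh1, cytosolic isocitrate dehydrogenase, at 9.20, 9.77 and 9.39. Rpia, of the pentose phosphate pathway, stood at 6.87, 7.23 and 6.72. Pgd and Taldo1 of the same pathway differed by at most 0.06. None of the 7 was 2-fold apart. Of all genes past the filter, 0.106% were between elaidate and oleate, 2.87% between palmitate and oleate and 1.85% between palmitate and elaidate.

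Among haem and iron genes, Slc40a1, the iron exporter ferroportin and an NRF2 target, repeated the order of Hmox1. It stood at 7.78 with oleate, 7.41 with elaidate and 8.56 with palmitate, and palmitate minus elaidate was 1.15. The ferritin genes Fth1 and Ftl1 differed by at most 0.07. Blvrb, a biliverdin reductase, was equal on all arrays, and for Blvra, the other one, palmitate minus oleate was -0.33. In the list of conjugation and export, Osgin1, an NRF2-induced growth inhibitor, also had the order of Hmox1, at 7.45, 7.22 and 7.97. Its palmitate minus elaidate difference of 0.75 was the furthest from 0 in a list with 0 of 13 genes at 2-fold, where 1.85% of all genes past the filter were in that comparison. Abcc1, an exporter of glutathione conjugates, differed by -0.18 for elaidate minus oleate, with oleate and palmitate equal. Catalase (Cat) was 0.24 higher with palmitate than with oleate, while Sod1 stood at -0.08 in the same comparison and Sod2 was equal.

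Of the 11 measured genes that work beside p62 in autophagy, 5 were higher with palmitate than with oleate, 2 lower and 4 equal. Of all genes past the filter, 30.9% were higher, 36.8% lower and 32.3% equal. Nbr1, a receptor related to p62, stood at 7.55, 7.59 and 8.24, Gabarapl1, of the autophagosome coat, at 7.92, 8.13 and 8.66, and Tax1bp1, another receptor, at 9.83, 9.85 and 10.30. All 11 were under 2-fold in every comparison, which is near the share of all genes (0.106%, 2.87% and 1.85% at 2-fold). Map1lc3b was equal on all arrays. Among proteins that degrade or phosphorylate NRF2 outside KEAP1, Gsk3b was 0.57 higher with palmitate than with oleate, and Eif2ak3, the endoplasmic reticulum kinase PERK, was equal on all arrays.

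Likeness to Sqstm1 over the 3 arrays was taken as the Euclidean distance between values centred on each gene's mean. Genes with symbols of predicted genes or small RNAs, or ending in Rik, were left out. Among the other genes past the filter, the most alike were Cyb5r1, Rnf113a1, Calcrl, Zfp420 and Mdfic. Their distances ran from 0.021 to 0.051. Cyb5r1, a cytochrome b5 reductase, stood at 7.51, 7.70 and 9.07, so that palmitate was 1.56 above oleate. Such likeness rests on 3 values a gene.

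The cells carried the markers of their label. All 9 macrophage markers passed the filter, with a median log2 value of 10.79 with oleate, 10.75 with elaidate and 10.44 with palmitate. Of these, 8 were lower with palmitate than with oleate, where 36.8% of all genes past the filter were. Mertk, a receptor for apoptotic cells, was at -2.10, where 1.22% of all genes were at least 2-fold lower. In RNA from whole cultures of 1 line, lower levels in every cell and lower levels in some cells cannot be told apart. The part of this shift in the results above was not tested. Of markers of other cells, 1 of 4 fibroblast genes, 0 of 3 lymphocyte genes and 1 of 3 hepatocyte or adipocyte genes passed the filter. Col1a1 and Alb were these. The highest palmitate minus oleate difference among markers of other cells was 0.05, for Pdgfra. Medians over the 35556 probe sets were 3.57, 3.58 and 3.61.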

How the data were processed

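RNA of RAW264.7 cells was hybridised to Affymetrix arrays, 1 for each of 3 fatty acids, and groups were taken from the labels. The authors deposited log2 values, 1 for each probe set, and the submitters' processing notes name RMA. Its version and the genome build are not given in the sources used here. This method corrects background, makes arrays alike in distribution and summarises probes, which can hide a shift common to most genes. The summarised values were equal to within 1e-06 on all arrays for 27.5% of genes past the filter. For a further 28.0% they were equal on exactly 2 arrays. Such ties are equal summaries and do not measure equal expression. Of 35556 probe sets, 21218 had 1 gene symbol in the platform annotation and were used, 1881 had several and 12457 were not named. Symbols were updated by gene identifier for 21185, and 1386 genes with several probe sets were averaged, giving 18820 genes.

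Differences of log2 values were taken between arrays, and genes at least 2-fold apart were counted over the 9410 genes past the filter. All 10 genes are named in every comparison. Of the lists, genes 2-fold apart in any comparison were named, or otherwise those furthest from 0, and further genes were chosen after their values were seen. The members and lists were chosen with earlier results of these data known. Alternatives were median centring, cyclic loess (span 0.7, 3 iterations; R 4.3.3 with limma 3.58.1), the brightest probe set, the filter applied to members, 1.5-fold, list means and no filter. The number of arrays limits the precision. Only the differences, the 2-fold limit and the loess step were run on simulated arrays, with known differences added. Gene averaging, the filter, array orders, lists and the motif search were not. Versions were Python 3.11.15, pandas 2.3.3, numpy 2.4.6 and matplotlib 3.10.9.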

Additional observations from a re-analysis of the deposited data

How the results depend on the processing

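Of 174 recomputed values, 160 stayed the same by the rule used (a log2 difference moved by less than 0.1, or a count within 1.5 times), 14 moved beyond it and 0 called values turned direction. Median centring, cyclic loess, the brightest probe set and the filter on members moved none past it. The last 2 could not move values of the 10 genes, since each had 1 probe set and passed the filter. Their unmoved values are still counted among the 160. With the probe set shared by Mrnip and Sqstm1 averaged in, an alternative chosen after seeing the data, 0 genes were 2-fold apart between palmitate and oleate and 0 between palmitate and elaidate. At a limit of 1.5-fold, 2 genes were apart for palmitate minus elaidate, Sqstm1 and Hmox1. The mean of the 10 genes in place of the median was 0.23 against oleate and 0.26 against elaidate for palmitate, and Sqstm1 contributes the largest part of both. Without the filter, the share of all genes 2-fold apart was 0.058% between elaidate and oleate, 1.45% between palmitate and oleate and 0.946% between palmitate and elaidate. At 1.5-fold it was 0.786%, 9.30% and 7.61% in the same order. No paired analysis was possible because each fatty acid has 1 array. For the same reason no replicate could be left out, and the error of each difference is unknown.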
